A study of Homo sapiens with 5 samples.

Results

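The genes described here build and fill the dense-core secretory granule of neuroendocrine cells. They are the granins CHGA, CHGB, SCG2, SCG3 and VGF, the prohormone convertases PCSK1 and PCSK2, the carboxypeptidase CPE, and the convertase-binding proteins SCG5 and PCSK1N. These 10 genes were chosen by name out of 64837 entries counted by RNA-Seq in NCI-H209 cells, a human small cell lung cancer (SCLC) cell line. The study asked how tumor cells respond to the blood vessel cells that they meet in the brain. The control group held 3 libraries of untreated NCI-H209 cells in RPMI-1640 medium with fetal bovine serum. The co-cultured group held 2 libraries of the same cells after 24 h below a porous insert that carried human brain microvascular endothelial cells (HBMECs), so that both cell types shared medium through the membrane. The study grew HBMECs with Nu-serum besides fetal bovine serum, and its methods do not state which medium the co-culture held. The labels do not say whether the control wells held an empty insert, or whether the libraries of a group came from separate cultures. If they did not, the p-values below measure a spread between libraries that may be technical.

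Peptide hormones are made as longer precursors that enter the regulated secretory pathway, are packed into granules at the Golgi and are released when calcium rises. Granins are acidic proteins that aggregate there, help granules to form and are themselves cut into active peptides. PCSK1 and PCSK2 cut precursors after paired basic residues, CPE trims the basic residues left at the new ends, PCSK1N (proSAAS) binds and inhibits PCSK1, and SCG5 (7B2) is the chaperone that PCSK2 needs to mature. Granins in serum and tissue are long-used markers of SCLC and other neuroendocrine tumors.

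The libraries held 15457071 to 19157348 counts on genes. Levels are given in CPM, counts scaled by library sizes that were normalized by TMM. A count of 3, the floor used here, equalled 0.154 CPM in control replicate 3 and up to 0.198 CPM in co-cultured replicate 2. Such floors cover counting error only. Unmapped reads were 8.13 to 8.48% of reads in control and 16.8% and 15.9% after co-culture, and the part of this difference in the results below was not tested. Control replicate 1 stood apart from the other controls on the second principal component, which held 18.3% of the variance, so results that rest on it are given with and without it. Neuroendocrine markers were well detected. All 12 were tested, 5 rose and 3 fell (66.7% called, against 33.4% of all genes tested), and their summed level was 2277 to 2647 CPM in control against 3233 and 3138 CPM in the co-cultured libraries. Markers of endothelial cells summed to 10.5 to 20.1 CPM in control and 14.0 and 13.8 CPM in the co-cultured libraries, 7 of the 18 were at or under the floor in every library, and MMRN1 and PLVAP were at 0. Of the 8 endothelial markers that could be tested, ESAM rose, from 0.229 to 1.04 CPM, and none fell.

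After co-culture the granule genes differed from control in both directions. VGF, SCG2, PCSK1 and CPE were upregulated, PCSK2 was downregulated, CHGB, SCG3 and PCSK1N did not pass the test, and CHGA and SCG5 had too few counts to be tested. The test was the quasi-likelihood F test of edgeR, with p adjusted by Benjamini-Hochberg over all 20360 genes kept, and a gene with an adjusted p under 0.05 was called. By that rule 5 of the 8 tested members were called, 62.5%, against 33.4% of all genes tested. The 4 members called higher compare with a background of 18.4% called higher, and the 1 called lower with 15.0%. Over all genes 3750 were called higher and 3059 lower, a split that turned to 3076 higher and 3929 lower with upper-quartile normalization, under which 3 members were higher and 1 lower. The median log2 fold change of the 8 was 0.28, against -0.03 over all genes. The study's methods set a fold change and a p threshold for differentially expressed genes (DEGs), without giving the scale or saying whether p was adjusted. With that criterion read as a log2 fold change beyond 1 in either direction and a raw p under 0.05, VGF was the 1 upregulated and PCSK2 the 1 downregulated member. All genes gave 10.5% DEGs, 5.44% upregulated and 5.01% downregulated. The control and co-cultured libraries did not overlap for 5 of the 8 members, close to the 59.4% of all genes for which this held. In bulk RNA, fewer cells of a kind and less RNA per cell cannot be told apart.

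**Figure D1:**
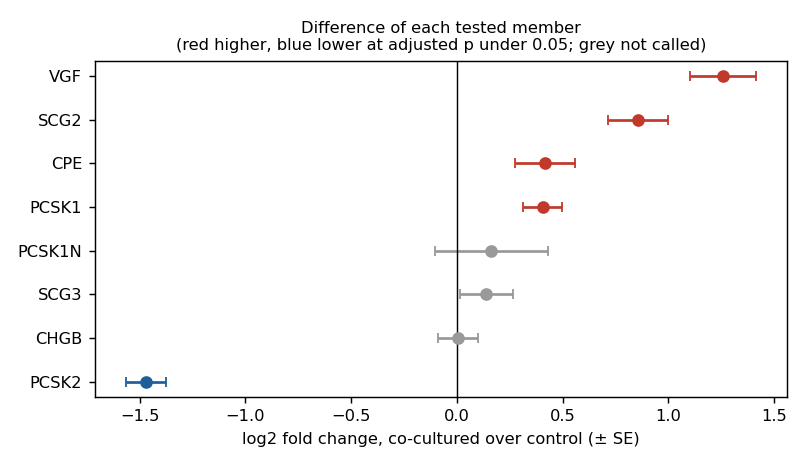
Log2 fold change, positive where co-cultured cells were higher (x axis), for the 8 tested members, with the SE as bars. VGF and SCG2 lie farthest to the right at 1.26 and 0.86, PCSK1 and CPE lie together at 0.41, CHGB sits at 0.01, and PCSK2 stands alone on the left at -1.47.

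Promoters are shown for VGF, the member with the largest rise, and for the convertases PCSK1 and PCSK2, which moved in opposite directions. RefSeq promoter sequences (GRCh38.p14, 250 bases before to 50 bases after each start) were matched by symbol for 8 of the 10 members, with 10 starts in all, and not for CHGB and SCG2. Bases -250 to -41 relative to the start are printed on the strand of the gene, with capitals for the cyclic AMP response element (CRE, TGACGTCA) and its shorter form TGACG, which the full element contains, on either strand. VGF is at chr7:101165610-101165819 on the minus strand, PCSK1 (the first of its 2 starts) at chr5:96433289-96433498 on the minus strand, and PCSK2 (the first of its 2 starts) at chr20:17225857-17226066 on the plus strand.
VGF: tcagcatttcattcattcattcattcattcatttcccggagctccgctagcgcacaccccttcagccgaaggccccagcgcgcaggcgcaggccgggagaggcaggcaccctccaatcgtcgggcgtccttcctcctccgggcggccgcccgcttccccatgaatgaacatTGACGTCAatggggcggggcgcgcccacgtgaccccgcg
PCSK1: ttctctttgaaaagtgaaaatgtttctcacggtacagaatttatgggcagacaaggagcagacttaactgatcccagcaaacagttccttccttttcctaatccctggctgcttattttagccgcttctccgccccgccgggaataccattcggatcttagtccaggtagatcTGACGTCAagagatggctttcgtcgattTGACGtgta
PCSK2: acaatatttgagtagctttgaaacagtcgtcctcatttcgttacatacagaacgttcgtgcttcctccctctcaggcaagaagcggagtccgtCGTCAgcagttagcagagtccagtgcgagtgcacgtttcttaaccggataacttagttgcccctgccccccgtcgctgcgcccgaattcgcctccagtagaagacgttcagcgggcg
The full CRE began at base -79 in VGF and at base -77 in PCSK1, and it was also found at base -54 in CHGA. These 3 of 10 member promoters compare with 1.85% of all 35116 RefSeq promoters of this length. PCSK2 held no full CRE in either window and the shorter TGACG, read on the other strand, at base -157 of the first and at base -96 of the second. No full CRE was found for CPE, which was called higher, or at the second start of PCSK1. SCG3, SCG5 and PCSK1N held none either, and CHGA, which held one, could not be tested for a difference. TGACG occurred in 8 of the 10 member promoters and in 24.6% of all. Of the other motifs searched on both strands, the E-box CAGCTG occurred in 2 member promoters (17.9% of all), ACGTG in 5 (21.4% of all), GCGTG in 6 (36.5% of all) and the TATA box TATAAA in 2 (11.5% of all). ACGTG and TGACG can share bases. These matches describe letters in a window and say nothing of which factor was bound in these cells.

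Among the granins, VGF rose most. VGF (chr7:101162509-101165593, minus strand) encodes a precursor of neuroendocrine peptides and responds to growth factors and cyclic AMP in neurons. Its level was 17.0, 11.7 and 12.2 CPM in the 3 control libraries and 32.8 and 32.4 CPM in the 2 co-cultured libraries. The groups were well apart, the co-cultured libraries nearly equal, and control replicate 1 the highest control. The mean rose from 13.6 ± 2.91 (SD, n = 3) to 32.6 ± 0.301 (SD, n = 2) CPM, a 2.39-fold difference on a log2 fold change of 1.26 (SE 0.15, adjusted p = 0.000460). Reads on the strand opposite to VGF made up 8.33 to 12.5% of the reads over the gene in control and 3.69% and 4.48% in the co-cultured libraries, more than the at most 0.988% over any other tested member. They numbered 22 to 34 per control library and 23 in each co-cultured one.

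SCG2 (secretogranin II, chr2:223596940-223602503, minus strand) is the precursor of secretoneurin. It was measured at 172, 133 and 125 CPM in control and at 232 and 288 CPM after co-culture. Every co-cultured library was above every control, and the co-cultured pair differed more from each other than for any other called member. The mean was 143 ± 24.9 CPM in control and 260 ± 39.6 CPM in co-cultured cells, a 1.81-fold rise (log2 fold change 0.86, SE 0.14, adjusted p = 0.00192).

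SCG3 (secretogranin III, chr15:51681353-51721031, plus strand) anchors granin aggregates to the granule membrane. Its values were 288, 213 and 221 CPM in control and 264 and 266 CPM in co-cultured libraries. The co-cultured libraries lay above control replicates 2 and 3 and below control replicate 1, so the groups overlapped. The difference did not pass the test (log2 fold change 0.14, SE 0.13, adjusted p = 0.428). Without control replicate 1 the log2 fold change was 0.29 and passed it (adjusted p = 0.000409, the smallest of a range up to 0.758 over 14 alternatives).

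CHGB (chromogranin B, chr20:5911430-5925361, plus strand) is a major soluble protein of the granule core. It measured 109.5, 90.0 and 100.0 CPM in control and 99.5 and 101.0 CPM in co-cultured libraries. Both co-cultured values lay inside the control range. The means were 99.8 ± 9.79 and 100.2 ± 1.08 CPM, with a log2 fold change of 0.01 (SE 0.093, adjusted p = 0.971). Its sign turned under 5 of the 14 alternatives, with values from -0.07 to 0.08.

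CHGA (chromogranin A, chr14:92923080-92935293, plus strand) is the granin most used as a clinical marker. It was listed at 0 counts in all 3 control libraries and in 1 co-cultured library, with 1 count in the other. These counts do not show whether CHGA RNA was present, because a whole stretch of neighbouring genes was also at 0. GOLGA5, the protein-coding gene just before it, had 902 to 1081 counts, while the 21 protein-coding genes that follow it, among them the RNA helicase DDX24 and the ubiquitin ligase UBR7 that most cells express, were at 0 in every library. Over all 19969 protein-coding genes, 24.4% had at most 3 counts in every library. What the zeros of this stretch come from was not tested.

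Hardly any reads were counted for SCG5 as well. SCG5 (chr15:32641676-32697098, plus strand) was listed at 0, 5 and 2 counts in control and at 0 and 1 after co-culture, at or near the floor in each group. Its neighbour ARHGAP11A, a cell division gene, had 2 to 13 counts, and GREM1 on the other side had 0, while FMN1 beyond it had 101 to 162. Some genes of this stretch were counted a second time as entries outside the primary chromosomes. Such second entries held 92 to 132 counts for FAN1, 27 to 68 for GOLGA8N and 0 to 9 for ARHGAP11A. Reads with several placements were 7.05 to 7.75% of each library and enter no gene count, and their part in the low counts of CHGA and SCG5 was not tested. SCG5 is therefore given as counts only, and the balance of PCSK2 with its chaperone could not be measured.

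**Figure D2:**
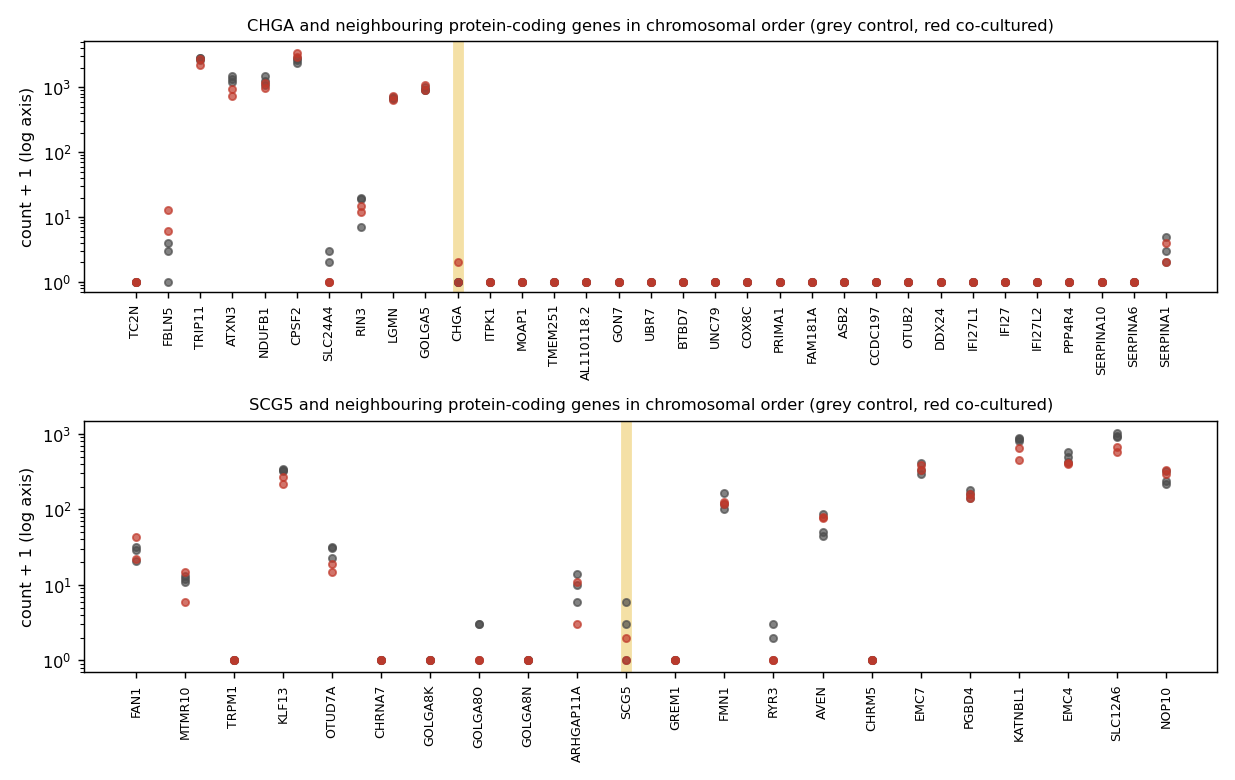
Counts plus 1 on a log axis for CHGA (top) and SCG5 (bottom), each shaded, and their neighbouring protein-coding genes in chromosomal order, 1 point per library (grey control, red co-cultured). In the top panel some genes before CHGA reach high counts and others have few or none, while the 21 genes after it lie at 0. In the bottom panel genes at 0 alternate with expressed genes.

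The convertases moved in opposite directions. PCSK2 (PC2, chr20:17226107-17484578, plus strand), which makes the later cuts of many neuropeptide precursors, was measured at 177, 180 and 202 CPM in control and at 64.4 and 70.1 CPM in co-cultured libraries. The groups were far apart on the scale of the spread within each. The mean fell from 186 ± 13.6 to 67.2 ± 4.03 CPM, 2.77-fold lower (log2 fold change -1.47, SE 0.093, adjusted p = 2.68e-05). It ranked 40 of 20360 genes by p, and 423 genes had a lower log2 fold change. PCSK2 was also the 1 tested member for which control replicate 1 was the lowest control library. Control replicate 1 was the highest control for the other 7, against 41.7% of all tested genes. Without it the fall of PCSK2 was -1.50.

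PCSK1 (PC1/3, chr5:96390415-96434143, minus strand) makes the early cuts. Its values were 108, 89.5 and 101 CPM in control and 131 and 132 CPM after co-culture. Both co-cultured libraries exceeded all controls. The mean rose from 99.5 ± 9.41 to 132 ± 0.858 CPM, 1.32-fold (log2 fold change 0.41, SE 0.091, adjusted p = 0.00867). The call was lost when either co-cultured library was left out, with adjusted p = 0.0679 without replicate 1 and 0.0838 without replicate 2, in a range from 1.96e-05 to 0.0838 over the alternatives.

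Within a library, the ratio of PCSK1 to PCSK2 reads was 0.611, 0.497 and 0.501 in control and 2.04 and 1.89 after co-culture. PCSK2 had more reads than PCSK1 in every control library and fewer in both co-cultured libraries. The log2 ratio was -0.91 ± 0.17 in control and 0.97 ± 0.077 after co-culture, a difference of 1.88. An exact two-sided permutation test gave p = 0.2, which is the smallest that 3 against 2 libraries allow (Benjamini-Hochberg adjusted p = 0.4 over the 2 ratios tested).

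CPE (chr4:165361194-165498320, plus strand) finishes the work of both convertases. It stood at 175, 122 and 127 CPM in control and 189 and 188 CPM in co-cultured libraries. The co-cultured libraries were above all controls, though not far above control replicate 1. The mean rose from 141 ± 29.4 to 189 ± 0.198 CPM, 1.33-fold (log2 fold change 0.41, SE 0.14), and the call lay at the edge of the threshold (adjusted p = 0.0494). It held in 7 of 14 alternatives, and the log2 fold change ran from 0.32 to 0.60 and the adjusted p from 3.93e-07 to 0.202 over all 14. Without control replicate 1, the highest control, the log2 fold change was 0.60 (adjusted p = 3.93e-07). The call was lost without control replicate 2 (adjusted p = 0.124), control replicate 3 (0.121) or either co-cultured library.

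PCSK1N (proSAAS, chrX:48831094-48835633, minus strand) was at 18.9, 10.1 and 9.88 CPM in control and 16.0 and 13.0 CPM in co-cultured libraries. Control replicate 1 alone lay above the co-cultured libraries, and the groups overlapped. The log2 fold change of 0.16 (SE 0.27, adjusted p = 0.675) did not pass the test. Without control replicate 1 it was 0.54 and did (adjusted p = 0.00307, in a range up to 0.994). The ratio of PCSK1N to PCSK1 reads was 0.175, 0.113 and 0.0978 in control and 0.122 and 0.0983 after co-culture, overlapping ranges (log2 difference -0.19, exact two-sided permutation p = 1). Leaving out control replicate 1 thus gave 6 members called higher and 1 called lower, while the calls over all genes went from 3750 to 5295 higher and from 3059 to 4602 lower. Leaving out either co-cultured library gave 2 called higher, VGF and SCG2, and 1 called lower, PCSK2.

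**Figure D3:**
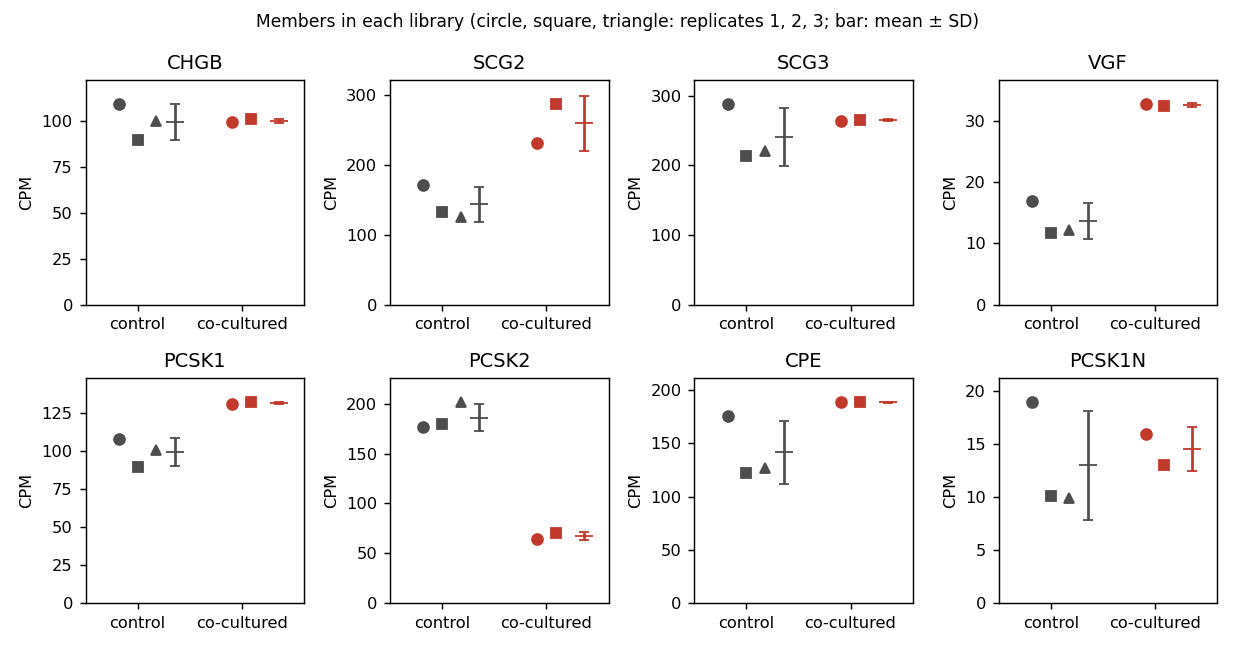
CPM (y axis, from 0) of the 8 tested members in each library, control in grey and co-cultured in red, with circle, square and triangle for replicates 1, 2 and 3 and the mean ± SD as a bar beside them. Co-cultured points lie above all controls for SCG2, VGF, PCSK1 and CPE, below all for PCSK2, and inside or between the controls for CHGB, SCG3 and PCSK1N.

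To compare members with one another, counts were divided by the length of the merged exons of each gene and scaled to TPM, a length-corrected unit with the same total in every library. In control the order of mean TPM was SCG3 (256 ± 26.8), SCG2 (186 ± 22.9), CPE (168 ± 23.5), PCSK2 (93.4 ± 9.77), CHGB (77.7 ± 1.58), PCSK1 (66.2 ± 1.25), PCSK1N (33.2 ± 10.9) and VGF (17.7 ± 2.54). SCG2 and CPE overlapped between libraries and the other neighbours in that order did not. After co-culture the order of mean TPM was SCG2 (322 ± 53.6), SCG3 (269 ± 4.94), CPE (214 ± 2.89), PCSK1 (83.6 ± 1.76), CHGB (74.4 ± 1.88), VGF (40.5 ± 0.21), PCSK1N (35.7 ± 4.62) and PCSK2 (32.0 ± 2.38). PCSK1N and PCSK2 overlapped there and the other neighbours did not. PCSK2 thus went from rank 4 to rank 8, PCSK1 from 6 to 4 and VGF from 8 to 6.

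**Figure D4:**
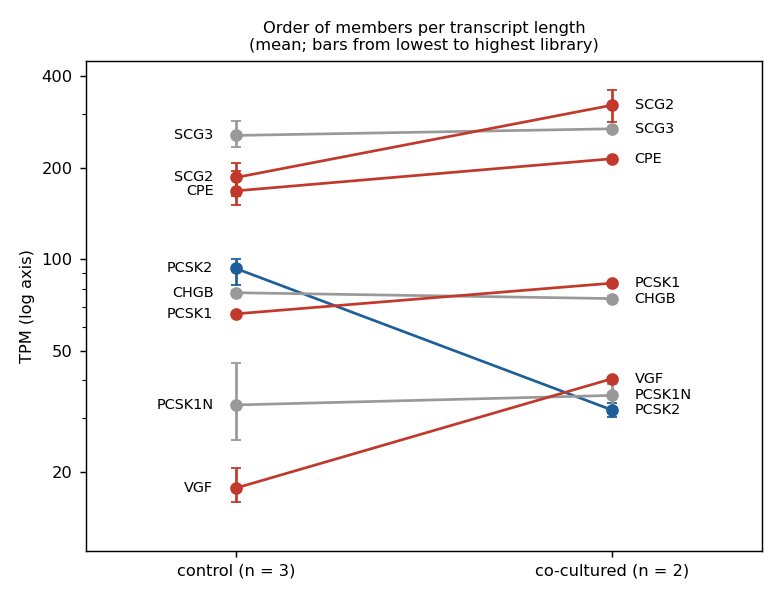
Mean TPM (log axis) of the 8 tested members in control (n = 3) and co-cultured (n = 2) libraries, with bars from the lowest to the highest library and lines coloured red for called higher, blue for called lower and grey for not called. The line of PCSK2 falls across those of CHGB, PCSK1, VGF and PCSK1N, and SCG2 passes SCG3.

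The TPM of the 10 members summed to 983, 878 and 834 in control and 1027 and 1116 after co-culture, higher in both co-cultured libraries. CHGA and SCG5 add almost nothing to it, although the counts of CHGA do not show whether its RNA was present. The sum and its shares thus describe the tested members. Within that sum SCG2 made up 19.4 to 21.4% in control and 27.6% and 32.2% after co-culture. PCSK2 made up 8.36 to 12.0% in control and 2.95% and 3.02% after co-culture. SCG3, the largest share in every control library, stood at 28.1 to 29.1% and then at 25.9% and 24.4%, and VGF at 1.89 to 2.10% and then at 3.93% and 3.65%. These shares are descriptions without a test.

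Other enzymes that cut, trim or amidate precursors, or remove their signal peptides, were read from a list of 20 genes. Of the 17 tested, 7 rose, 3 fell and 7 did not pass (58.8% called, against 33.4% of all genes), with a median log2 fold change of 0.16. FURIN, the convertase of the constitutive pathway, rose from 49.0 ± 3.00 to 104 ± 4.92 CPM (log2 fold change 1.09, adjusted p = 5.01e-05). PAM, which amidates peptide ends, rose from 47.1 ± 1.88 to 93.8 ± 8.92 CPM (0.99, adjusted p = 9.32e-05), and CPD, a carboxypeptidase of the Golgi, from 272 ± 25.2 to 415 ± 15.3 CPM (0.61, adjusted p = 0.00131). The gene CPM, for carboxypeptidase M of the cell surface (a symbol that has nothing to do with the unit), rose by 0.94 on the log2 scale (adjusted p = 0.00592). PCSK4, a convertase best known from germ cells, fell by 1.20 on the log2 scale, from 7.64 ± 2.24 to 3.28 ± 1.08 CPM (adjusted p = 0.0151). SEC11C, a signal peptidase subunit and the most abundant of the list by CPM, was at 842 ± 130 and 791 ± 42.0 and was not called (-0.09, adjusted p = 0.602). Without co-cultured replicate 1 the list gave 3 higher and 1 lower, and without co-cultured replicate 2 it gave 5 higher and 0 lower. It also gave 1 lower without control replicate 3. The call of the gene CPM was lost without co-cultured replicate 1 (adjusted p = 0.0766) and that of PCSK4 without co-cultured replicate 2 (adjusted p = 0.139).

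Genes of granule formation, docking and release were read from a list of 56. Of the 52 tested, 22 rose, 4 fell and 26 did not pass (50% called, against 33.4% of all genes), with a median log2 fold change of 0.26. SYT5, a calcium sensor of granules, rose from 8.15 ± 0.614 to 18.9 ± 0.735 CPM (1.21, adjusted p = 0.000210). STX1A, the plasma membrane syntaxin of regulated release, rose from 20.7 ± 2.26 to 41.5 ± 1.82 CPM (1.001, adjusted p = 0.000275). PTPRN (IA-2), a membrane protein of dense-core granules, rose from 100 ± 5.27 to 173 ± 12.8 CPM (0.79, adjusted p = 0.000222), and SYT11 from 98.2 ± 3.45 to 153 ± 1.56 CPM (0.64, adjusted p = 0.000325). BAIAP3, which acts in dense-core vesicle exocytosis, fell from 20.3 ± 3.67 to 6.05 ± 0.714 CPM (-1.74, adjusted p = 0.000208). RIMS2, an active zone protein and the most abundant of the list, was at 792 ± 15.8 and 762 ± 57.5 CPM and was not called (-0.06, adjusted p = 0.640). The count of falls was 9 without control replicate 1 and 2 without co-cultured replicate 2, and the count of rises 14 without co-cultured replicate 1.

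Of 43 genes for peptide precursors that such granules could carry, 16 were at or under the floor in every library and 18 could be tested. Of those, 4 rose, 1 fell and 13 did not pass, so that 27.8% were called, below the 33.4% of all genes (median log2 fold change 0.29). ADM, the precursor of adrenomedullin, was measured at 2.50, 3.70 and 5.68 CPM in control and at 34.5 and 17.3 CPM after co-culture (2.71, adjusted p = 0.000464). CALCB, the precursor of a calcitonin gene-related peptide, rose from 4.47 ± 0.889 to 17.2 ± 2.76 CPM (1.94, adjusted p = 0.000144). Its close relative CALCA, the calcitonin gene, which lies within the annotated span of CALCB on the other strand and may share reads with it, rose from 2.96 ± 0.975 to 5.85 ± 0.782 CPM (0.97, adjusted p = 0.0238), and NMB, neuromedin B, from 2.27 ± 0.676 to 4.38 ± 0.304 CPM (0.95, adjusted p = 0.0219). Neuromedin U, NMU, fell from 8.21 ± 0.739 to 5.28 ± 0.183 CPM (-0.63, adjusted p = 0.0168). GRP, the gastrin-releasing peptide of SCLC, was the most abundant precursor at 192 ± 37.7 CPM in control and 144 ± 16.7 CPM in co-cultured libraries. Both co-cultured libraries lay below all controls, and the difference did not pass the test (-0.42, adjusted p = 0.0572), although it passed in 10 of the 14 alternatives (adjusted p from 0.000238 to 0.353 over all 14). Without control replicate 1, the highest control for GRP, the log2 fold change of GRP was -0.24 (adjusted p = 0.0100). The calls of CALCA, NMB and NMU did not hold when libraries were left out. Adjusted p reached 0.168 for CALCA, which lost its call without control replicate 2, co-cultured replicate 1 or co-cultured replicate 2. It reached 0.154 for NMB and 0.118 for NMU, which lost theirs without control replicate 3, co-cultured replicate 1 or co-cultured replicate 2. Without either co-cultured library 2 precursors were called higher and 0 lower, and without control replicate 1 and control replicate 2 the calls lower were 5 and 2.

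**Figure D5:**
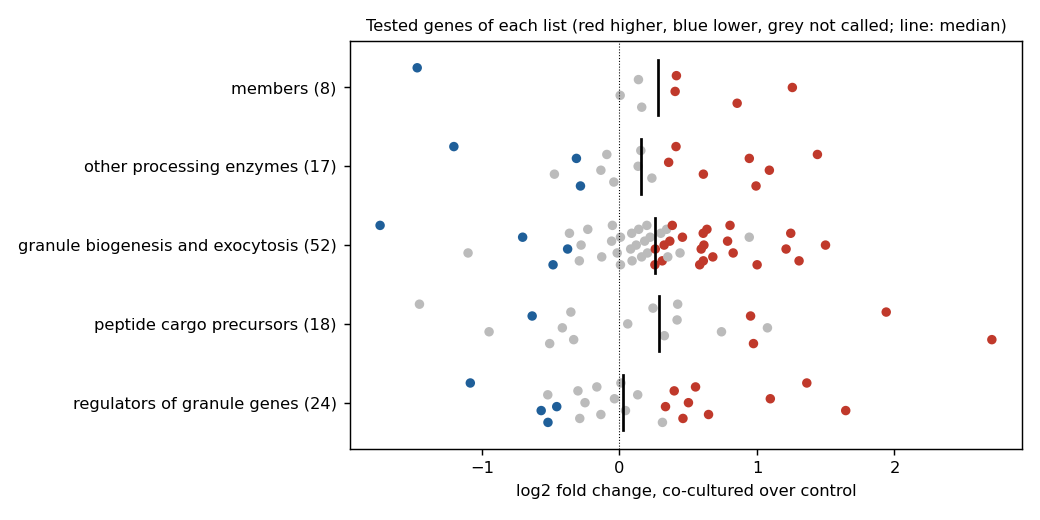
Log2 fold change, positive where co-cultured cells were higher (x axis), for each tested gene of the members and of 4 lists, red for called higher, blue for called lower, grey for not called, with the median as a line. Medians run from 0.03 for regulators to 0.29 for peptide precursors, and each list holds genes on both sides of 0.

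Regulators of neuroendocrine or granule genes were read from a list of 25 transcription factors, cofactors and RNA-binding proteins. Of the 24 tested, 9 rose, 4 fell and 11 did not pass (54.2% called, against 33.4% of all genes, median log2 fold change 0.03). ATF3, a stress-induced factor that binds CRE-like sites, rose from 38.9 ± 3.23 to 83.3 ± 0.759 CPM (1.10, adjusted p = 6.66e-05). RCOR2, a corepressor of the family used by REST, rose from 15.2 ± 1.96 to 39.0 ± 6.98 CPM (1.36, adjusted p = 0.000218). ISL1, a factor of endocrine and neuronal cells, fell from 137 ± 17.9 to 64.7 ± 5.72 CPM (-1.08, adjusted p = 0.000274). EGR1, an immediate early gene, was called higher (1.65, adjusted p = 0.0393), yet its values of 10.8, 6.03 and 2.46 CPM in control and 10.2 and 30.3 CPM after co-culture overlapped. Without co-cultured replicate 2 its log2 fold change was 0.67 (adjusted p = 0.480, the largest over the alternatives, the smallest being 7.51e-22). The call was also lost without control replicate 2 (adjusted p = 0.0893) and without control replicate 3 (adjusted p = 0.0693), and with DESeq2 in place of edgeR (log2 fold change 1.67, adjusted p = 0.159).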

How the data were processed

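Total RNA was depleted of rRNA and made into libraries with a directional kit. Per the submitters' processing notes, CASAVA 1.8, STAR 2.6.1b, DESeq2 and the GRCh38 genome were used. The authors deposited, for each library, read counts per gene identifier without regard to strand and for each strand, in the layout of STAR. The identifiers included all 58780 genes of GENCODE release 29. The authors' table of the comparison (group means, fold changes, standard errors and p-values) served only to pair identifiers with symbols, and CHGA, which it does not list, was matched through GENCODE. Counts of the strand that held 92.3 to 93.1% of gene reads were used as deposited. They made up 30.7 to 33.6% of all reads of a library.

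Genes were kept by filterByExpr, normalized by TMM and compared with the quasi-likelihood test of edgeR 4.0.16 in R 4.3.3, with Benjamini-Hochberg adjustment over 20360 genes. The biological coefficient of variation was 10.2%. SE was obtained as log2 fold change over the root of F. The script was run on simulated counts in which 200 genes changed, far fewer than were called here. That run checks the code and not the calls. CPM uses TMM library sizes, and TPM the merged exon length. DESeq2 1.42.0 was 1 of 14 alternatives. Ratios were compared by exact permutation tests (scipy 1.17.1), and figures drawn with matplotlib 3.10.9.

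The members and lists were chosen with earlier results of these data known. Named from each list were up to 5 called genes of smallest p with an absolute log2 fold change above 0.58, and the gene of highest mean CPM. An item that this rule named among the regulators is not reported here. Neighbouring genes, marker genes and RefSeq promoters were singled out after their values were seen. Replicate pairs differed beyond counting noise (chi-square per degree of freedom 4.60 to 18.2), so none was merged. Deviations of libraries with the same number had correlations of -0.11 and -0.07. These cannot decide whether libraries were paired, because the deviations of only 2 co-cultured libraries mirror each other. Labels give no shared origin, so the numbers were not taken as pairs.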

Additional observations from a re-analysis of the deposited data

Results flagged for a closer look

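Reads on the strand opposite to a member were not used in the comparison. They were more numerous in the co-cultured than in the control libraries over 3 of the upregulated members. Over SCG2 they averaged 13 counts in co-cultured against 8 in control libraries. Over PCSK1 the averages were 18 and 11.7 counts. Over CPE they were 6 and 3 counts. In each library these reads were under 1% of the reads over the gene, and the difference was not tested. As a share of the reads over the gene, the groups overlapped for SCG2 and PCSK1 and did not for CPE.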

How the results depend on the processing

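Over the 14 alternatives VGF (log2 fold change 1.16 to 1.45, largest adjusted p = 0.0111), SCG2 (0.70 to 1.01, 0.0377) and PCSK2 (-1.55 to -1.40, 0.00230) kept direction and call, PCSK1 did in 12 (0.33 to 0.47) and CPE in 7. CPE was lost under upper-quartile normalization (0.34, adjusted p = 0.0678), with protein-coding genes only (0.35, 0.0674), and without control replicate 2 (0.124), control replicate 3 (0.121) or either co-cultured library (0.187 and 0.202). The sign turned for CHGB under upper-quartile normalization (-0.071), at least 10 counts in every library (-0.0056) and protein-coding genes only (-0.062). Leaving out each library gave -0.061 to 0.080 for CHGB, -0.16 to 0.045 for SEC11C (positive without control replicate 1) and -0.13 to 0.027 for RIMS2 (positive without co-cultured replicate 1). The median log2 fold change of all genes was -0.03, against -0.11 under upper-quartile normalization and -0.01 with protein-coding genes only. The cause of the sign turns was not tested. With upper-quartile normalization, and with protein-coding genes only, 7 regulators fell in place of 4. Peptide precursors called lower were 2 in place of 1 under DESeq2, the exact test, upper-quartile normalization, both count filters, unstranded counts and protein-coding genes only. Other processing enzymes called lower were 1 in place of 3 with unstranded counts.

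With the replicate block, which has no shared origin behind it, other processing enzymes called lower were also 1, CPE (0.36, adjusted p = 0.0689), NMB (0.0632) and NMU (0.0788) were not called, and all genes gave 2771 higher and 2053 lower.

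Leaving out each library gave 2 to 6 members higher and 1 lower, 3 to 10 other processing enzymes higher and 0 to 4 lower, 14 to 32 granule genes higher and 2 to 9 lower, 2 to 4 peptide precursors higher and 0 to 5 lower, 6 to 10 regulators higher, a co-cultured minus control difference in log2 ratio of 1.82 to 1.98 for PCSK1 to PCSK2 and -0.36 to 0.06 for PCSK1N to PCSK1, and 1749 to 5295 genes higher and 985 to 4602 lower over all. GRP, not called in the report, passed in 10 of the 14 alternatives. With 2 co-cultured libraries, small differences such as those of PCSK1 and CPE lie near what can be resolved.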
